A study of Mus musculus with 22 samples.

Results

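Oxidative phosphorylation genes were followed in the hypothalamus of mice carrying Lewis lung carcinoma, a transplantable mouse tumour. Genes were taken by symbol: those beginning with Ndufa, Ndufb, Ndufc, Ndufs, Ndufv, Sdha, Sdhb, Sdhc, Sdhd, Uqcr, Cyc1, Cox4, Cox5, Cox6, Cox7, Cox8 or Atp5, leaving out Ndufaf genes, Atp5s and pseudogenes. The symbols gave 86 of the 18820 genes measured, with 36 in complex I, 8 in complex II, 8 in complex III, 17 in complex IV and 17 in complex V. The complex II count includes 4 assembly factors, Sdhaf1 to Sdhaf4, which share the Sdha prefix but are not subunits, so that 82 members were left without them. Each gene was read from its probe set with the highest mean, and 25 members had more than 1 probe set. Cox7c, Ndufa13 and Uqcrc2 shared their probe sets with other genes, and Ndufb1, Ndufb4b and Ndufb4c had none of their own in this pairing, so these were not analysed here.

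The complexes sit in the inner mitochondrial membrane. Complex I takes electrons from NADH and complex II takes them from succinate; both hand them to coenzyme Q, complex III passes them on to cytochrome c, and complex IV uses them to reduce oxygen to water. The proton gradient built by complexes I, III and IV drives ATP synthesis by complex V, the main source of ATP in neurons. Most subunits are encoded in the nucleus, and those are the genes described here.

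One array was made per mouse from 22 male C57BL/6 mice, 6 weeks old at the start and housed one to a cage. Lewis lung carcinoma cells were placed in hind leg muscle under anaesthesia. The tumour-bearing groups numbered 5 mice killed on day 10, 7 on day 14 and 6 on day 17 after inoculation, and 4 control mice without a tumour were killed on day 14. All mice received ketamine and xylazine before dissection, and the labels do not say whether the controls had a mock injection. Days 10 and 17 had no controls of their own day, and the 3 comparisons with control share the same 4 control arrays, so a gene that is high or low in those 4 arrays shows it on every day. Levels are log2 values, and a change is the tumour mean minus the control mean on that scale, with the standard error (SE) of a linear model fitted over all genes with limma. A gene is said to have risen or fallen only at a Benjamini-Hochberg adjusted p below 0.05 over all genes.

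Array medians ran from 5.27 to 5.34, and all 12 hypothalamic marker genes, among them Pomc, Hcrt, Avp and Oxt, had a mean above the background level of 3.87, as did 84 of the 86 members (not Cox8b and Cox7b2). Markers of the neighbouring thalamus differed between dissections. Their mean was between 6.46 and 7.23 in 4 arrays (day 14 replicate 2, day 17 replicate 1 and control replicates 1 and 3), against 5.75 to 6.29 in the others. The members' medians, the counts of lower genes and the day 17 calls are also given without those 4 arrays; single-gene values include them. In whole tissue, fewer cells of a type and less RNA per cell cannot be told apart.

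Most oxidative phosphorylation genes had slightly lower means in tumour-bearing mice, and the shift was small: the median change over the 86 members was -0.067 on day 10, -0.065 on day 14 and -0.091 on day 17, against medians of 0.0006, -0.0046 and -0.011 over all genes. Means lay below control for 67 members on day 10 (49.7% of all genes), 72 on day 14 (52.0% of all genes) and 77 on day 17 (53.7% of all genes). The share over all genes depended on level. At mean log2 values of 6 to 8 it was 64.4%, 60.7% and 65.8%, against 20, 19 and 22 of 24 members. Between 9 and 10 it was 67.8%, 71.3% and 71.9%, against 18, 21 and 22 of 23 members. With arrays centred on the genes above background, the day 17 count of lower members was 68 of 86. The median over all genes was then 0.016, and the share of all genes that were lower was not computed for that scaling. No member passed the threshold on day 10 (0.106% of all genes did) or day 14 (0.218%), and on day 17 Ndufa2, Ndufs8 and Cox7a1 fell, which is 3 of 86 (1.12% of all genes in either direction, 0.685% lower). No member rose on any day (0.101%, 0.197% and 0.436% of all genes on days 10, 14 and 17). At an unadjusted p below 0.05, 12 members were lower on day 10 (5.43% of all genes), 12 on day 14 (6.18%) and 28 on day 17 (10.5%), and 0 were higher (5.27%, 4.28% and 6.13% of all genes).

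All 5 complexes had median changes below 0 on each day. Complex I, the NADH dehydrogenase, had median changes of -0.061, -0.075 and -0.093 on days 10, 14 and 17, with 28, 28 and 32 of its 36 genes lower. Complex II, succinate dehydrogenase with its assembly factors, had medians of -0.066, -0.074 and -0.082, and without the assembly factors -0.032, -0.064 and -0.069. Complex III, the cytochrome bc1 complex, had medians of -0.074, -0.083 and -0.11, with 7, 7 and 8 of 8 genes lower. Complex IV, cytochrome c oxidase, had medians of -0.071, -0.055 and -0.063, with 11, 13 and 14 of 17 genes lower. Complex V, the ATP synthase, had medians of -0.047, -0.056 and -0.11, with 14, 16 and 15 of 17 genes lower. Without the 4 arrays high in thalamus markers, which left 2 controls, the medians of the 5 complexes lay between -0.041 and -0.072 on day 10, -0.041 and -0.11 on day 14, and -0.052 and -0.14 on day 17. Differences between the complexes were not tested.

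**Figure D1:**
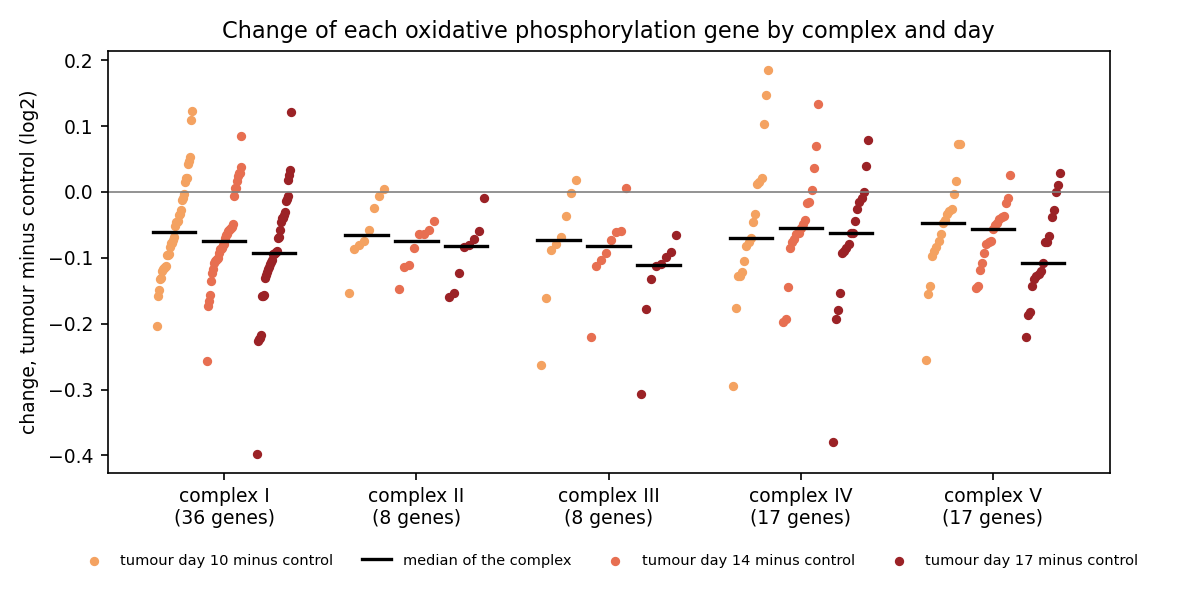
Change of each member (log2, tumour minus control) by complex and day; each point is a gene and black lines are medians. Medians of all 5 complexes lie below 0 on each day, between -0.047 and -0.11, and the lowest points are Ndufa2 in complex I and Cox7a1 in complex IV on day 17.

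Ndufs8 is a core subunit of complex I that carries iron-sulfur clusters on the electron path to coenzyme Q. Ndufs8 read 9.61, 9.68, 9.62, 9.65 and 9.71 in the tumour day 10 mice, with a lowest, median and highest of 9.56, 9.66 and 9.79 on tumour day 14 and of 9.58, 9.64 and 9.72 on tumour day 17. Ndufs8 in the controls read 9.81, 9.86, 9.89 and 9.87. Every tumour array of all 3 days lay below the lowest control. Ndufs8 differed from control by -0.20 ± 0.049, -0.17 ± 0.046 and -0.22 ± 0.047 on days 10, 14 and 17 (adjusted p = 0.139, 0.132 and 0.0288). The difference was already near its day 17 size on day 10, but passed the threshold only on day 17.

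Ndufa2 is an accessory subunit of the part of complex I that binds NADH. Ndufa2 read 9.08, 9.01, 8.88, 8.70 and 8.90 in the tumour day 10 mice, with a lowest, median and highest of 8.52, 8.77 and 9.03 on tumour day 14 and of 8.52, 8.61 and 8.83 on tumour day 17. Ndufa2 in the controls read 9.04, 9.09, 8.99 and 9.01. The groups overlapped on day 10, when 3 of 5 arrays lay below the lowest control, and on day 14, when 6 of 7 did, but not on day 17. Ndufa2 differed from control by -0.11 ± 0.086, -0.26 ± 0.081 and -0.40 ± 0.083 on days 10, 14 and 17 (adjusted p = 0.656, 0.221 and 0.0236). Between tumour days, Ndufa2 differed by -0.28 ± 0.078 for day 17 minus day 10 (adjusted p = 0.323), which did not pass.

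Cox7a1 is the complex IV subunit 7a isoform known from heart and skeletal muscle. Cox7a1 read 5.12, 5.08, 4.91, 5.20 and 5.11 in the tumour day 10 mice, with a lowest, median and highest of 5.07, 5.18 and 5.27 on tumour day 14 and of 4.67, 5.01 and 5.17 on tumour day 17. Cox7a1 in the controls read 5.35, 5.54, 5.30 and 5.32. All tumour arrays lay below all controls, and day 17 replicate 5 was the lowest array. Cox7a1 differed from control by -0.29 ± 0.084, -0.20 ± 0.078 and -0.38 ± 0.081 on days 10, 14 and 17 (adjusted p = 0.214, 0.366 and 0.0259). Markers of skeletal and heart muscle had a mean of 4.11 to 4.20 on day 17 and of 4.09 to 4.26 in controls, with 0 of 8 past the threshold or at an unadjusted p below 0.05. On days 10 and 14 that mean ran from 4.13 to 4.48 and from 4.08 to 4.26. Of the 8 muscle markers, 5 had a mean above background. The part of muscle in the Cox7a1 values was not tested.

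The 3 calls rest on few arrays. The day 17 count was 0 without control replicate 1, 2 or 3 (37, 59 and 56 calls over all genes, against 211 with all arrays) or without day 17 replicate 4 (74 over all genes). It was 1 without day 17 replicate 5 (100 over all genes) and 5 without day 17 replicate 6 (382 over all genes). Without the 4 arrays high in thalamus markers it was 0 of 86, with 0 calls over all genes. The changes on day 17 without them were -0.42 for Ndufa2, -0.23 for Ndufs8 and -0.46 for Cox7a1. The call of Ndufs8 was also lost under 3 other scalings of the arrays (adjusted p = 0.0588, 0.0572 and 0.0657).

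**Figure D2:**
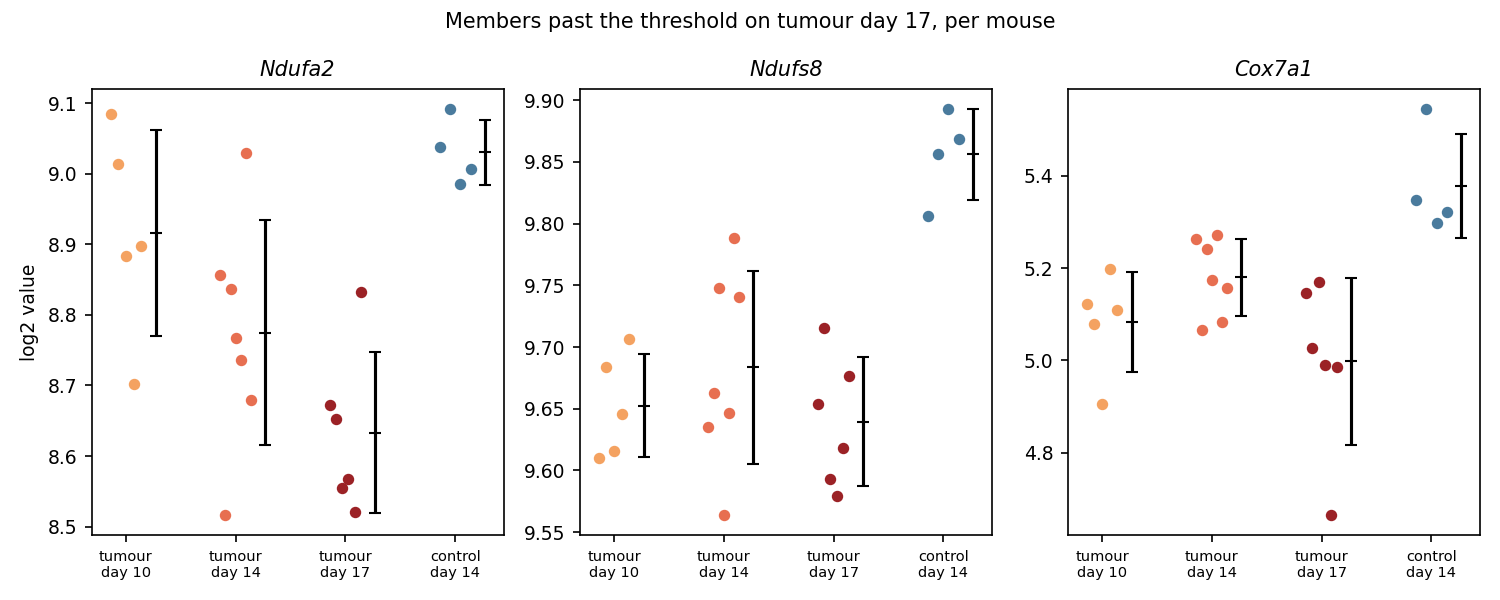
Log2 values of Ndufa2, Ndufs8 and Cox7a1 in each mouse, with the mean and SD of each group as black bars. All day 17 values lie below all 4 controls in each panel, while for Ndufa2 the day 10 and day 14 values overlap the controls.

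Promoters are shown for Ndufs8 and Cox7a1, 2 of the 3 members that fell on day 17, and for Ndufs6, the member with the next smallest p on that day, which was chosen after its values were seen; that of Ndufa2 is not shown here. NRF1, GABPA and YY1 are transcription factors known to bind promoters of respiratory chain genes. Each window runs from 250 bases before to 50 bases after the RefSeq start (GRCm38.p6), written 5′ to 3′ on the gene's strand, and capitals mark matches on either strand to GCGC followed by any base and TGCGC (NRF1), CCGGAAG (GABPA) or AAGATGGCG (YY1). Ndufs8 lies on the minus strand at chr19:3912725-3913024, Cox7a1 on the plus strand at chr7:30183921-30184220 and Ndufs6 on the minus strand at chr13:73328433-73328732.
Ndufs8: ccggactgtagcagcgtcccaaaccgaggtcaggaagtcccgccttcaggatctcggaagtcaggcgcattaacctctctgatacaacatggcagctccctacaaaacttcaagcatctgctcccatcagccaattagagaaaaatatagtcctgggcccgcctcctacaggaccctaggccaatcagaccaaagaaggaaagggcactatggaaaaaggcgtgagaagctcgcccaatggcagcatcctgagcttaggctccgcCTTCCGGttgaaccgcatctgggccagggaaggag
Cox7a1: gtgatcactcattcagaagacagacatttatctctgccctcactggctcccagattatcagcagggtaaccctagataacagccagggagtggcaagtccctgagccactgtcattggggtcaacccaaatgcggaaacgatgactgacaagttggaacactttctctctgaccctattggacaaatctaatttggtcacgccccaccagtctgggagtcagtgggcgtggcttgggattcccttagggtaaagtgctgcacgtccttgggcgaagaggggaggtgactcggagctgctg
Ndufs6: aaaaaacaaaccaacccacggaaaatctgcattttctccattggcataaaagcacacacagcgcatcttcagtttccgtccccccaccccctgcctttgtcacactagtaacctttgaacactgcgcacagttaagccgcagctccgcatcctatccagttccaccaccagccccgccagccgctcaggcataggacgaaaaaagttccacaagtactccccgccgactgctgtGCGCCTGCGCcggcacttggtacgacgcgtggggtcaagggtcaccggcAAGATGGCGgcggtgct

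The Ndufs8 window held 1 GABPA match, on the opposite strand, 15 bases after the start. The Cox7a1 window held none of the 3. The Ndufs6 window held an NRF1 match 16 bases before the start and a YY1 match 33 bases after it. Among the 71 members with a window, 26.8% held an NRF1 match (5.19% of all genes with a window and 7.17% of protein-coding ones), 28.2% a GABPA match (9.93% and 12.9%) and 9.86% a YY1 match (1.64% and 2.14%). Other motifs, searched on both strands, were the ESRRA element TCAAGGTCA in 2.82% of members (0.466% of all genes and 0.377% of protein-coding ones), the CRE TGACGTCA in 5.63% (2.03% and 2.54%), the GC box GGGCGG in 45.1% (38.2% and 49.2%) and the HIF element ACGTG in 25.4% (21.8% and 23.2%). On day 17 the 19 members with an NRF1 match had a median change of -0.065 and the 52 without one had -0.11; the 20 members with a GABPA match had -0.12 and the 51 without one had -0.091. A match says only that these letters are in the window, and the differences between members with and without a match were not tested.

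No other complex I gene passed the threshold. Ndufs6 is an accessory subunit of the NADH-binding part. Ndufs6 read 7.43, 7.51, 7.71, 7.48 and 7.69 in the tumour day 10 mice, with a lowest, median and highest of 7.36, 7.52 and 7.65 on tumour day 14 and of 7.33, 7.38 and 7.49 on tumour day 17. Ndufs6 in the controls read 7.59, 7.68, 7.59 and 7.58. All 6 day 17 arrays and 6 of 7 day 14 arrays lay below the lowest control, but on day 10 arrays lay on both sides of the controls. Ndufs6 differed from control by -0.046 ± 0.065, -0.12 ± 0.060 and -0.22 ± 0.062 on days 10, 14 and 17 (adjusted p = 0.83, 0.511 and 0.0822). Ndufs7 is a core subunit with the iron-sulfur cluster nearest to coenzyme Q. Ndufs7 read 10.80, 10.85, 10.99, 10.86 and 10.94 in the tumour day 10 mice, with a lowest, median and highest of 10.90, 10.92 and 10.98 on tumour day 14 and of 10.79, 10.90 and 11.09 on tumour day 17. Ndufs7 in the controls read 10.98, 11.13, 11.06 and 10.98. Most arrays of each day lay below the lowest control. Ndufs7 differed from control by -0.15 ± 0.056, -0.11 ± 0.052 and -0.12 ± 0.054 on days 10, 14 and 17 (adjusted p = 0.357, 0.494 and 0.279). At an unadjusted p below 0.05, 4 complex I genes were lower on day 10 (5.43% of all genes), 6 on day 14 (6.18%) and 12 on day 17 (10.5%). Besides those named, Ndufs1, which carries iron-sulfur clusters in the NADH-binding part, had all arrays below the lowest control on days 14 and 17, and accessory subunits Ndufb2 and Ndufc1 did on day 17.

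Of the 36 complex I genes, 11 had a mean at or above control on at least 1 day, with 0 past the threshold, and 3 of the 11 are described here. Ndufs5, an accessory subunit, had its largest difference on day 14. Ndufs5 read 7.48, 7.28, 7.35, 7.41 and 7.42 in the tumour day 10 mice, with a lowest, median and highest of 7.27, 7.41 and 7.60 on tumour day 14 and of 7.22, 7.34 and 7.56 on tumour day 17. Ndufs5 in the controls read 7.21, 7.37, 7.36 and 7.39. The groups overlapped on every day, and control replicate 1 was the lowest control. Ndufs5 differed from control by 0.053 ± 0.071, 0.085 ± 0.066 and 0.018 ± 0.068 on days 10, 14 and 17 (adjusted p = 0.818, 0.68 and 0.924). Ndufa4 was named as a complex I subunit and is now placed in complex IV. By its symbol it is counted in complex I here, as is Ndufa4l2. Ndufa4 read 8.73, 8.96, 8.86, 8.86 and 8.82 in the tumour day 10 mice, with a lowest, median and highest of 8.82, 8.88 and 8.96 on tumour day 14 and of 8.73, 8.83 and 8.93 on tumour day 17. Ndufa4 in the controls read 8.87, 8.88, 8.87 and 8.78. On day 14, 4 of 7 arrays lay above the highest control, and on days 10 and 17 arrays lay on both sides of the control range. Ndufa4 differed from control by -0.0026 ± 0.052, 0.024 ± 0.049 and -0.014 ± 0.050 on days 10, 14 and 17 (adjusted p = 0.991, 0.896 and 0.921). Ndufa4l2 is a related gene known to respond to low oxygen. Ndufa4l2 read 4.31, 3.96, 3.95, 4.03 and 4.04 in the tumour day 10 mice, with a lowest, median and highest of 3.74, 3.85 and 4.05 on tumour day 14 and of 3.87, 4.05 and 4.29 on tumour day 17. Ndufa4l2 in the controls read 3.97, 4.14, 3.86 and 3.83. Its values were near background in every group. Ndufa4l2 differed from control by 0.11 ± 0.085, -0.080 ± 0.080 and 0.12 ± 0.082 on days 10, 14 and 17 (adjusted p = 0.672, 0.762 and 0.471).

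No complex II gene passed the threshold. At an unadjusted p below 0.05 there were 0, 0 and 2 lower genes on days 10, 14 and 17 (5.43%, 6.18% and 10.5% of all genes). Sdhb is the iron-sulfur subunit. Sdhb read 8.98, 8.79, 8.80, 8.77 and 8.92 in the tumour day 10 mice, with a lowest, median and highest of 8.79, 8.86 and 8.95 on tumour day 14 and of 8.62, 8.80 and 8.88 on tumour day 17. Sdhb in the controls read 8.98, 9.02, 8.94 and 8.78. The other controls were higher than control replicate 4, which lay among the tumour arrays. Sdhb differed from control by -0.081 ± 0.063, -0.058 ± 0.059 and -0.15 ± 0.061 on days 10, 14 and 17 (adjusted p = 0.671, 0.765 and 0.208). Sdhc is a membrane anchor subunit. Sdhc read 8.75, 8.64, 8.60, 8.54 and 8.61 in the tumour day 10 mice, with a lowest, median and highest of 8.47, 8.53 and 8.69 on tumour day 14 and of 8.34, 8.64 and 8.81 on tumour day 17. Sdhc in the controls read 8.76, 8.71, 8.62 and 8.64. The groups overlapped on every day. Sdhc differed from control by -0.058 ± 0.075, -0.11 ± 0.070 and -0.080 ± 0.072 on days 10, 14 and 17 (adjusted p = 0.811, 0.608 and 0.609).

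Sdhaf1 and Sdhaf3 are assembly factors that help the iron-sulfur subunit mature. Sdhaf1 read 5.86, 5.95, 6.07, 6.26 and 5.93 in the tumour day 10 mice, with a lowest, median and highest of 5.93, 6.13 and 6.20 on tumour day 14 and of 5.76, 6.13 and 6.34 on tumour day 17. Sdhaf1 in the controls read 6.18, 6.12, 6.25 and 6.12. On day 10, 4 of the 5 arrays lay below the lowest control, and the 2 later days overlapped the controls. Sdhaf1 differed from control by -0.15 ± 0.091, -0.084 ± 0.085 and -0.071 ± 0.087 on days 10, 14 and 17 (adjusted p = 0.563, 0.763 and 0.725). Sdhaf3 read 7.29, 7.22, 7.29, 7.18 and 7.22 in the tumour day 10 mice, with a lowest, median and highest of 7.14, 7.22 and 7.27 on tumour day 14 and of 6.95, 7.22 and 7.29 on tumour day 17. Sdhaf3 in the controls read 7.38, 7.32, 7.38 and 7.23. No tumour array lay above the highest control on any day. Sdhaf3 differed from control by -0.086 ± 0.063, -0.11 ± 0.059 and -0.16 ± 0.060 on days 10, 14 and 17 (adjusted p = 0.643, 0.507 and 0.187).

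In complex III the largest difference belonged to Uqcr11, a small accessory subunit. Uqcr11 read 7.63, 7.67, 7.67, 7.60 and 7.60 in the tumour day 10 mice, with a lowest, median and highest of 7.38, 7.66 and 7.91 on tumour day 14 and of 7.43, 7.54 and 7.99 on tumour day 17. Uqcr11 in the controls read 8.02, 7.99, 7.97 and 7.61. One control, replicate 4, lay among the tumour arrays, and the other controls were near the highest tumour array, day 17 replicate 6. Uqcr11 differed from control by -0.26 ± 0.11, -0.22 ± 0.10 and -0.31 ± 0.11 on days 10, 14 and 17 (adjusted p = 0.41, 0.462 and 0.152). Uqcrq and Uqcr10 are also small accessory subunits. Uqcrq read 8.91, 8.76, 8.68, 8.78 and 8.90 in the tumour day 10 mice, with a lowest, median and highest of 8.62, 8.80 and 8.88 on tumour day 14 and of 8.68, 8.69 and 8.76 on tumour day 17. Uqcrq in the controls read 8.81, 8.77, 8.93 and 8.84. Only on day 17 did all arrays lie below the lowest control. Uqcrq differed from control by -0.037 ± 0.057, -0.059 ± 0.053 and -0.13 ± 0.055 on days 10, 14 and 17 (adjusted p = 0.849, 0.736 and 0.234). Uqcr10 read 7.86, 7.91, 7.77, 7.82 and 7.84 in the tumour day 10 mice, with a lowest, median and highest of 7.81, 7.93 and 8.08 on tumour day 14 and of 7.70, 7.90 and 8.09 on tumour day 17. Uqcr10 in the controls read 8.14, 7.94, 7.94 and 7.99. Only on day 10 did all arrays lie below the lowest control. Uqcr10 differed from control by -0.16 ± 0.075, -0.060 ± 0.070 and -0.091 ± 0.073 on days 10, 14 and 17 (adjusted p = 0.457, 0.797 and 0.554). Cyc1 is cytochrome c1, which passes electrons to cytochrome c. Cyc1 read 9.03, 8.96, 9.06, 8.98 and 9.11 in the tumour day 10 mice, with a lowest, median and highest of 8.90, 9.01 and 9.04 on tumour day 14 and of 8.90, 9.01 and 9.09 on tumour day 17. Cyc1 in the controls read 9.16, 9.16, 9.09 and 9.02. On day 17, 5 of 6 arrays lay below the lowest control. Cyc1 differed from control by -0.079 ± 0.049, -0.11 ± 0.046 and -0.11 ± 0.047 on days 10, 14 and 17 (adjusted p = 0.586, 0.379 and 0.238).

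In complex IV, tissue isoforms can be set beside the widely used forms, each only against itself, since levels of different probe sets cannot be compared. Cox7b had a difference of like size on all days. Cox7b read 10.91, 11.06, 10.92, 11.01 and 11.03 in the tumour day 10 mice, with a lowest, median and highest of 10.87, 11.01 and 11.16 on tumour day 14 and of 10.95, 10.99 and 11.09 on tumour day 17. Cox7b in the controls read 11.14, 11.20, 11.14 and 11.17. All day 10 and day 17 arrays and 6 of 7 day 14 arrays lay below the lowest control. Cox7b differed from control by -0.18 ± 0.053, -0.14 ± 0.050 and -0.15 ± 0.051 on days 10, 14 and 17 (adjusted p = 0.231, 0.275 and 0.135). Cox7a2 is the widely used counterpart of Cox7a1. Cox7a2 read 8.86, 9.09, 9.02, 9.12 and 9.08 in the tumour day 10 mice, with a lowest, median and highest of 8.78, 9.11 and 9.16 on tumour day 14 and of 8.96, 9.02 and 9.22 on tumour day 17. Cox7a2 in the controls read 8.91, 9.32, 9.16 and 9.08. Control replicate 1 was lower than most tumour arrays, and the groups overlapped. Cox7a2 differed from control by -0.082 ± 0.082, -0.071 ± 0.076 and -0.062 ± 0.079 on days 10, 14 and 17 (adjusted p = 0.747, 0.777 and 0.733). Cox7a2l is known for its part in joining respiratory complexes together. Cox7a2l read 7.45, 7.32, 7.18, 7.30 and 7.34 in the tumour day 10 mice, with a lowest, median and highest of 7.13, 7.32 and 7.42 on tumour day 14 and of 7.16, 7.29 and 7.41 on tumour day 17. Cox7a2l in the controls read 7.28, 7.39, 7.20 and 7.32. Tumour and control ranges overlapped almost fully. Cox7a2l differed from control by 0.021 ± 0.064, 0.0036 ± 0.060 and -0.0096 ± 0.062 on days 10, 14 and 17 (adjusted p = 0.935, 0.992 and 0.956).

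Cox8a is the widely used form of subunit 8. Cox8a read 10.60, 10.71, 10.73, 10.73 and 10.77 in the tumour day 10 mice, with a lowest, median and highest of 10.64, 10.70 and 10.77 on tumour day 14 and of 10.44, 10.60 and 10.82 on tumour day 17. Cox8a in the controls read 10.69, 10.76, 10.87 and 10.80. On day 17, 5 of 6 arrays lay below the lowest control. Cox8a differed from control by -0.071 ± 0.064, -0.077 ± 0.060 and -0.18 ± 0.062 on days 10, 14 and 17 (adjusted p = 0.719, 0.684 and 0.149). Cox8b is the heart and skeletal muscle form. Cox8b read 3.96, 3.88, 3.65, 4.07 and 3.83 in the tumour day 10 mice, with a lowest, median and highest of 3.74, 3.78 and 4.01 on tumour day 14 and of 3.64, 3.79 and 3.89 on tumour day 17. Cox8b in the controls read 3.74, 3.90, 3.82 and 3.65. Its mean was below the background level. Cox8b differed from control by 0.10 ± 0.075, 0.037 ± 0.070 and 0.0005 ± 0.072 on days 10, 14 and 17 (adjusted p = 0.643, 0.886 and 0.998). Cox8c is a form known from testis. Cox8c read 4.10, 3.93, 4.00, 3.90 and 4.04 in the tumour day 10 mice, with a lowest, median and highest of 3.71, 3.90 and 4.23 on tumour day 14 and of 3.64, 3.95 and 4.07 on tumour day 17. Cox8c in the controls read 4.20, 3.91, 3.89 and 3.94. Values lay close to background in every group, and the groups overlapped. Cox8c differed from control by 0.012 ± 0.095, -0.049 ± 0.089 and -0.078 ± 0.092 on days 10, 14 and 17 (adjusted p = 0.978, 0.881 and 0.707).

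Cox6a1 is the widely used form of subunit 6a. Cox6a1 read 8.81, 8.86, 9.05, 8.96 and 8.91 in the tumour day 10 mice, with a lowest, median and highest of 8.83, 9.002 and 9.06 on tumour day 14 and of 8.88, 8.94 and 9.06 on tumour day 17. Cox6a1 in the controls read 9.03, 9.05, 9.16 and 8.95. Tumour arrays lay below or within the control range. Cox6a1 differed from control by -0.13 ± 0.061, -0.062 ± 0.057 and -0.085 ± 0.059 on days 10, 14 and 17 (adjusted p = 0.463, 0.74 and 0.485). Cox6a2 is the heart and skeletal muscle form. Cox6a2 read 6.27, 6.08, 6.45, 6.10 and 6.34 in the tumour day 10 mice, with a lowest, median and highest of 5.80, 6.20 and 6.46 on tumour day 14 and of 6.15, 6.30 and 6.36 on tumour day 17. Cox6a2 in the controls read 6.25, 6.01, 6.77 and 6.45. The controls spread more widely than each tumour group, and the groups overlapped. Cox6a2 differed from control by -0.12 ± 0.12, -0.19 ± 0.11 and -0.090 ± 0.12 on days 10, 14 and 17 (adjusted p = 0.749, 0.576 and 0.742). Cox6b1 is the widely used form of subunit 6b. Cox6b1 read 9.82, 9.64, 9.68, 9.73 and 9.77 in the tumour day 10 mice, with a lowest, median and highest of 9.65, 9.71 and 10.04 on tumour day 14 and of 9.35, 9.71 and 9.80 on tumour day 17. Cox6b1 in the controls read 9.93, 9.95, 9.92 and 9.60. Control replicate 4 and day 17 replicate 4 stood apart below the rest of their groups. Cox6b1 differed from control by -0.13 ± 0.089, -0.085 ± 0.084 and -0.19 ± 0.086 on days 10, 14 and 17 (adjusted p = 0.631, 0.759 and 0.266). Cox6b2 is the form known from testis. Cox6b2 read 4.97, 4.49, 4.76, 4.64 and 4.37 in the tumour day 10 mice, with a lowest, median and highest of 4.29, 4.48 and 4.93 on tumour day 14 and of 4.31, 4.43 and 4.74 on tumour day 17. Cox6b2 in the controls read 4.37, 4.33, 4.71 and 4.43. The groups overlapped on every day. Cox6b2 differed from control by 0.19 ± 0.13, 0.070 ± 0.12 and 0.039 ± 0.12 on days 10, 14 and 17 (adjusted p = 0.626, 0.87 and 0.908).

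Cox4i1 is the widely used form of subunit 4. Cox4i1 read 9.28, 9.56, 9.34, 9.45 and 9.48 in the tumour day 10 mice, with a lowest, median and highest of 9.33, 9.46 and 9.54 on tumour day 14 and of 9.31, 9.39 and 9.55 on tumour day 17. Cox4i1 in the controls read 9.42, 9.47, 9.55 and 9.54. The groups overlapped on every day. Cox4i1 differed from control by -0.075 ± 0.064, -0.055 ± 0.060 and -0.093 ± 0.062 on days 10, 14 and 17 (adjusted p = 0.702, 0.782 and 0.468). Cox4i2 is the form known from lung and linked to low oxygen. Cox4i2 read 4.64, 4.49, 4.51, 4.87 and 4.45 in the tumour day 10 mice, with a lowest, median and highest of 4.49, 4.71 and 4.77 on tumour day 14 and of 4.45, 4.69 and 4.84 on tumour day 17. Cox4i2 in the controls read 4.74, 4.71, 4.78 and 4.55. Low values and overlapping groups were seen throughout. Cox4i2 differed from control by -0.11 ± 0.088, -0.016 ± 0.082 and -0.026 ± 0.084 on days 10, 14 and 17 (adjusted p = 0.694, 0.964 and 0.912). Cox7b2 is a form known from testis. Cox7b2 read 2.98, 2.84, 2.58, 2.28 and 2.50 in the tumour day 10 mice, with a lowest, median and highest of 2.40, 2.58 and 2.86 on tumour day 14 and of 2.47, 2.54 and 2.67 on tumour day 17. Cox7b2 in the controls read 2.55, 2.47, 2.60 and 2.34. Its values stayed below background in all arrays. Cox7b2 differed from control by 0.15 ± 0.11, 0.13 ± 0.11 and 0.079 ± 0.11 on days 10, 14 and 17 (adjusted p = 0.664, 0.688 and 0.754).

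In complex V, Atp5pb, a subunit of the peripheral stalk, had the smallest p on day 17. Atp5pb read 9.43, 9.46, 9.54, 9.44 and 9.53 in the tumour day 10 mice, with a lowest, median and highest of 9.34, 9.52 and 9.56 on tumour day 14 and of 9.32, 9.45 and 9.53 on tumour day 17. Atp5pb in the controls read 9.47, 9.74, 9.71 and 9.58. Control replicate 1 was lower than the other controls and lay among the tumour arrays. Atp5pb differed from control by -0.14 ± 0.062, -0.15 ± 0.058 and -0.19 ± 0.060 on days 10, 14 and 17 (adjusted p = 0.424, 0.369 and 0.123). Atp5j, coupling factor 6, is also part of the peripheral stalk. Atp5j read 10.06, 10.23, 10.18, 10.18 and 10.17 in the tumour day 10 mice, with a lowest, median and highest of 10.14, 10.18 and 10.23 on tumour day 14 and of 10.08, 10.12 and 10.24 on tumour day 17. Atp5j in the controls read 10.21, 10.31, 10.28 and 10.24. Most tumour arrays of each day lay below the lowest control. Atp5j differed from control by -0.098 ± 0.046, -0.075 ± 0.043 and -0.13 ± 0.045 on days 10, 14 and 17 (adjusted p = 0.463, 0.564 and 0.164). Atp5d is the delta subunit of the catalytic head's rotating stalk. Atp5d read 11.49, 11.49, 11.58, 11.51 and 11.57 in the tumour day 10 mice, with a lowest, median and highest of 11.41, 11.50 and 11.59 on tumour day 14 and of 11.35, 11.48 and 11.58 on tumour day 17. Atp5d in the controls read 11.49, 11.68, 11.65 and 11.60. No day 10 array lay below the lowest control, replicate 1. Atp5d differed from control by -0.075 ± 0.055, -0.11 ± 0.051 and -0.12 ± 0.053 on days 10, 14 and 17 (adjusted p = 0.646, 0.463 and 0.259).

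Atp5g1, Atp5g2 and Atp5g3 encode the same mature c subunit of the membrane rotor behind different import sequences. Atp5g1 read 10.45, 10.39, 10.45, 10.41 and 10.47 in the tumour day 10 mice, with a lowest, median and highest of 10.39, 10.53 and 10.62 on tumour day 14 and of 10.37, 10.43 and 10.53 on tumour day 17. Atp5g1 in the controls read 10.49, 10.68, 10.56 and 10.62. All day 10 arrays lay below the lowest control, and later days overlapped the controls. Atp5g1 differed from control by -0.16 ± 0.056, -0.079 ± 0.052 and -0.14 ± 0.054 on days 10, 14 and 17 (adjusted p = 0.325, 0.624 and 0.189). Atp5g2 read 9.93, 10.01, 9.97, 9.92 and 9.95 in the tumour day 10 mice, with a lowest, median and highest of 9.93, 9.96 and 10.00 on tumour day 14 and of 9.86, 9.97 and 10.06 on tumour day 17. Atp5g2 in the controls read 9.88, 9.99, 9.89 and 9.99. On day 17, 3 of 6 arrays lay above the highest control and 1 lay below the lowest. Atp5g2 differed from control by 0.017 ± 0.045, 0.025 ± 0.042 and 0.029 ± 0.043 on days 10, 14 and 17 (adjusted p = 0.922, 0.865 and 0.775). Atp5g3 read 9.67, 9.72, 9.73, 9.65 and 9.73 in the tumour day 10 mice, with a lowest, median and highest of 9.67, 9.69 and 9.71 on tumour day 14 and of 9.55, 9.71 and 9.78 on tumour day 17. Atp5g3 in the controls read 9.79, 9.76, 9.68 and 9.68. Values overlapped on every day. Atp5g3 differed from control by -0.029 ± 0.047, -0.038 ± 0.044 and -0.038 ± 0.045 on days 10, 14 and 17 (adjusted p = 0.855, 0.794 and 0.713). Whether these probe sets also pick up RNA of the related copies was not tested.

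Counted over the 86 members, all tumour arrays lay below all controls for 5 genes on day 10 (2.24% of all genes), 3 on day 14 (1.06%) and 9 on day 17 (3.30%). Without the 4 arrays high in thalamus markers, and so against 2 controls, the counts were 14 (6.68% of all genes), 13 (3.89%) and 23 (8.54%). The day 10 genes were Atp5g1, Cox7a1, Cox7b, Ndufs8 and Uqcr10. On day 14 they were Cox7a1, Ndufs1 and Ndufs8. The day 17 genes were Cox7a1, Cox7b, Ndufa2, Ndufb2, Ndufc1, Ndufs1, Ndufs6, Ndufs8 and Uqcrq. For no member did all tumour arrays lie above all controls (2.21%, 0.776% and 1.66% of all genes on days 10, 14 and 17). Among the 34 further probe sets of 25 members, 23, 27 and 29 had a lower mean on days 10, 14 and 17. Some went against the probe set used for their gene. Those of Cox6a1 (0.084, 0.0018 and 0.023) and Sdhaf1 (0.0040, 0.13 and 0.046) had higher means on all 3 days. Their mean log2 values were lower, at 5.64 and 4.32. Others went against it on some days only, and not all of these were low. The further probe set of Atp5pb, with a mean of 9.005, differed by 0.033, -0.062 and -0.14 on days 10, 14 and 17. The Atp5pb probe set used differed by -0.14, -0.15 and -0.19. The further probe set of Sdhaf4, with a mean of 3.62, differed by 0.18, 0.015 and -0.054, while the one used was lower on each day.

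The shift can be read in single mice. The median difference of the 86 members from their control means ran from -0.068 to -0.029 on day 10, from -0.11 to -0.016 on day 14 and from -0.12 to -0.051 on day 17, against -0.025 to 0.025 in the controls. Every day 10 and day 17 array and all but 1 day 14 array lay below the lowest control. Over all genes the same median ran from -0.026 to 0.042, from -0.022 to 0.017 and from -0.041 to 0.016 on days 10, 14 and 17, against -0.015 to 0.020 in the controls. Of the 86 members, between 75.6% and 84.9% lay below the control mean in a day 17 mouse, against 36.0% to 61.6% in a control. Each control is itself part of the control mean, which draws the control values toward 0 and makes the groups look further apart.

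**Figure D3:**
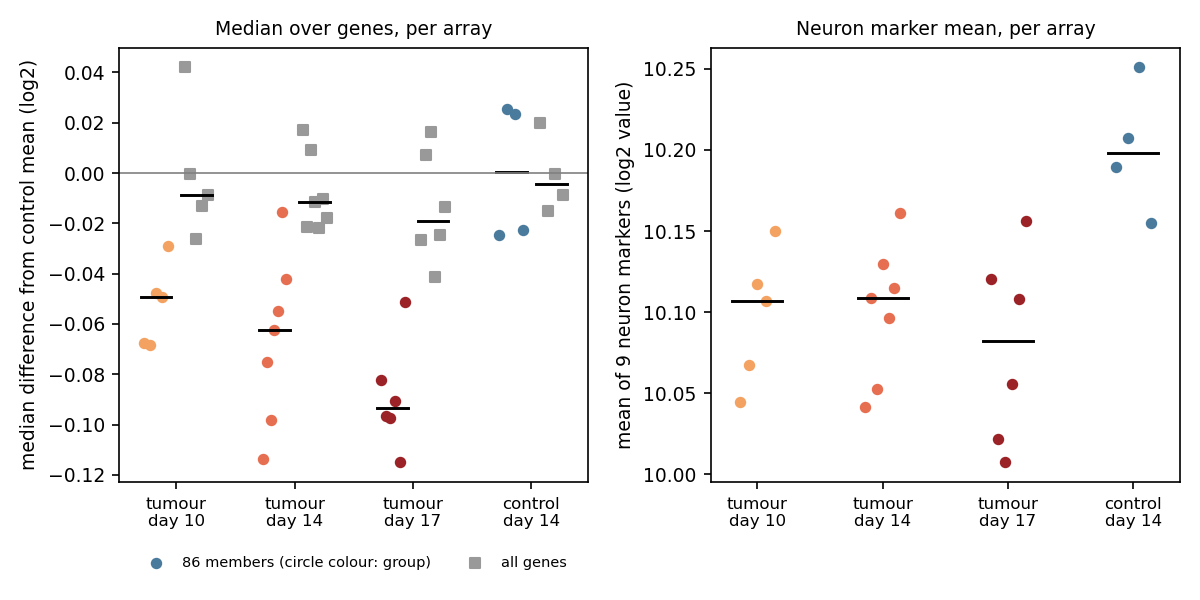
Left, median difference from the control mean (log2) over the 86 members (circles) and over all genes (grey squares) in each array; right, mean of 9 neuron markers (log2 value) in each array; black lines are group medians. Members sit between -0.12 and -0.016 in tumour arrays, against -0.025 to 0.025 in controls, which are themselves part of the control mean. The neuron marker mean of all but 2 tumour arrays lies below the lowest control.

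Neuron markers also had lower means. All 9 measured neuron markers were lower on each of the 3 days, with median changes of -0.093, -0.092 and -0.12. Nefl, the neurofilament light chain, fell on day 17 (-0.23 ± 0.055, adjusted p = 0.0445), as did 0.685% of all genes. Over all genes, 49.7%, 52.0% and 53.7% had lower means on days 10, 14 and 17. Between mean log2 values of 10 and 11 the share was 71.6%, 75.4% and 77.1%, with medians of -0.041, -0.043 and -0.050. Differences between neuron markers and genes of like level were not tested. The mean of the neuron list ran from 10.04 to 10.15 on day 10, 10.04 to 10.16 on day 14 and 10.01 to 10.16 on day 17. In the controls it ran from 10.16 to 10.25. With that mean as a covariate, the members' median changes were -0.023, -0.031 and -0.049, and those of all genes were -0.024, -0.030 and -0.040. In that fit 0 of all genes passed the threshold on day 17. The part of neuron content in the members' shift was not tested.

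Markers of other cells and of neighbouring tissue also differed. All 10 thalamus markers had lower means on each day, with median changes of -0.52, -0.49 and -0.55, and 0 of 10 passed (4, 1 and 2 at an unadjusted p below 0.05). Their mean over the list ran from 5.79 to 6.29 on day 10, 5.75 to 6.74 on day 14 and 5.76 to 6.46 on day 17, against 5.82 to 7.23 in controls. Without the 4 arrays highest in these markers, the members' median changes were -0.054, -0.069 and -0.091, and 67, 69 and 73 members had lower means (45.5%, 47.6% and 49% of all genes). Of 34 named members, 30, 28 and 30 kept the sign of their change on days 10, 14 and 17 without those arrays, and the median changes of the neuron markers were -0.071, -0.089 and -0.11. Ependymal markers, from the cells lining the ventricle, had 7 of 7 lower means on day 17, when Tmem212 fell (-0.41 ± 0.088, adjusted p = 0.0264). Red cell markers were higher: on day 17, 3 of 6 rose, among them Alas2, the mitochondrial enzyme that starts haem synthesis in red cells (2.42 ± 0.34, adjusted p = 0.00128). Only 2 of the 6 red cell markers had a mean above background. Rhag, which also rose, read 2.82 on day 17 and 2.41 in controls, below background in both. No marker of the other cell types passed on any day. Oligodendrocyte markers had higher means in 7 of 8 on day 10 and lower means in 7 of 8 on days 14 and 17 (medians 0.094, -0.14 and -0.15), and the mean of the list ran from 8.71 to 9.08 on day 17, against 8.74 to 9.17 in controls. Endothelial markers had higher means in 7, 6 and 7 of 9 (medians 0.082, 0.11 and 0.15), with a list mean of 6.89 to 7.18 on day 17, against 6.80 to 7.00 in controls. Meningeal fibroblast markers had higher means in 8, 6 and 6 of 8 (medians 0.35, 0.20 and 0.049), and on day 10 their list mean ran from 5.43 to 6.58, against 5.42 to 5.90 in controls. Mural cell markers were higher in 10, 10 and 9 of 12 (medians 0.14, 0.18 and 0.051). Microglial markers were higher in 8 of 9 on day 10 and lower in 8 of 9 on day 17 (medians 0.085 and -0.056). Astrocyte and choroid plexus markers had medians between -0.030 and 0.076 over the 3 days. The part of these cells in the members' values was not tested.

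Change also depended on level. Genes with a mean log2 value below 4 were higher in tumour-bearing mice (medians 0.075, 0.042 and 0.065 on days 10, 14 and 17), and genes between 9 and 10 were lower (-0.034, -0.037 and -0.047). The 23 members between 9 and 10 had medians of -0.046, -0.056 and -0.076. Between 10 and 11, the 10 members had -0.084, -0.076 and -0.12, against -0.041, -0.043 and -0.050 for all genes at that level. The 24 members between 6 and 8 had -0.077, -0.072 and -0.10, against -0.032, -0.023 and -0.042. Over the 13789 genes above background the medians were -0.022, -0.021 and -0.035. After a level-dependent scaling of the arrays (cyclic loess), the members' medians were -0.039, -0.042 and -0.058.

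**Figure D4:**
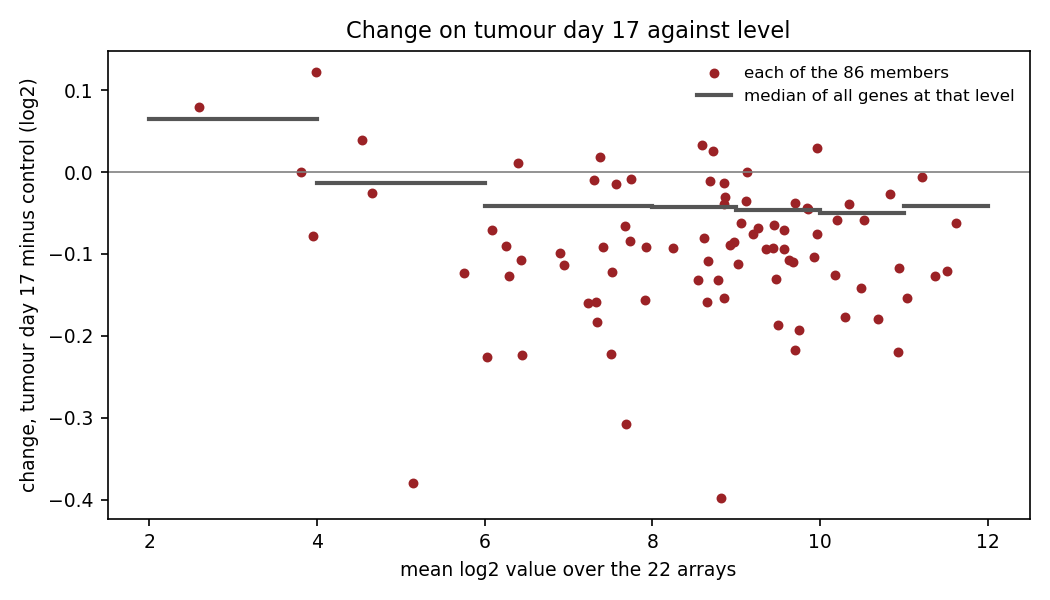
Change on day 17 (log2, tumour minus control) of each of the 86 members (points) against its mean log2 value, with grey bars for the median of all genes at that level. The bars run from 0.065 below a level of 4 to -0.050 between 10 and 11, and most members lie below them.

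The arrays fell into 9 earlier and 13 later samples by order of deposition, which the labels do not call a batch. Among the later samples the members' medians were -0.064, -0.058 and -0.10 on days 10, 14 and 17, over 3, 4 and 3 tumour arrays and 3 controls. Against the single control of the earlier samples they were -0.048, -0.075 and -0.058. Ndufs8 was lower in both sets on each day (-0.22, -0.19 and -0.25 in the later, -0.16, -0.12 and -0.15 in the earlier samples). Ndufa2 on day 10 differed by -0.20 in the later and by 0.012 in the earlier samples. With the later samples alone, 0 members and 0 of all genes passed on day 17.

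Differences between the tumour days were small. No member passed for day 14 minus day 10 (0.00531% of all genes did), day 17 minus day 10 (0.00%) or day 17 minus day 14 (0.00%), and at an unadjusted p below 0.05 there were 3, 5 and 4 members (7.13%, 8.30% and 4.17% of all genes). Median differences over the members were -0.0066, -0.032 and -0.031, against -0.0072, -0.014 and -0.0068 over all genes. A straight line over days 10, 14 and 17 in tumour-bearing mice called 0 members (0.00% of all genes), with 6 at an unadjusted p below 0.05, all downward (5.36% of all genes). The F test over the 4 groups called 0 members (0.335% of all genes) and had 10 at an unadjusted p below 0.05 (11.8%).

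Most other mitochondrial genes also had lower means on day 17, with few calls. Over all genes, 53.7% had lower means that day, and 10.5% were lower at an unadjusted p below 0.05. At mean log2 values of 6 to 8 and of 8 to 9, 65.8% and 68.3% of all genes were lower, with medians of -0.042 in both. Differences between the lists and genes of like level were not tested. Of 42 assembly factors, which include Sdhaf1 to Sdhaf4, 1 fell on day 17, Bcs1l, which inserts the iron-sulfur protein into complex III (-0.36 ± 0.084, adjusted p = 0.0413), and 31 had lower means. The 74 mitochondrial ribosome genes had 53 lower means, and Mrpl36, a large-subunit protein, fell (-0.32 ± 0.077, adjusted p = 0.0457). The 12 coenzyme Q and electron carrier genes, with all means lower and a median of -0.11, had no call and 5 at an unadjusted p below 0.05; Coq2, which attaches the side chain of coenzyme Q, had -0.19 ± 0.060 (adjusted p = 0.126). No call was made among 16 genes of the citric acid cycle and pyruvate dehydrogenase (13 lower, 2 at an unadjusted p below 0.05, median -0.063), 15 regulators of mitochondrial biogenesis (12 lower, 4 at that p, median -0.12) or 19 import genes (14 lower, 3 at that p, median -0.042). Among the regulators, Nrf1 had -0.15 ± 0.051 (adjusted p = 0.139) and Tfam, which maintains mitochondrial DNA, had -0.16 ± 0.058 (adjusted p = 0.168).

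Smaller lists and glycolysis were also counted on day 17. Adenine nucleotide and phosphate transporters (6 of 7 lower), antioxidant enzymes (5 of 6 lower) and uncoupling proteins (2 of 4 lower) had 0 calls, with 1, 1 and 0 genes lower at an unadjusted p below 0.05. The 15 glycolysis genes split evenly, with 8 higher and 7 lower means and a median of 0.025, and Ldha, the lactate dehydrogenase A subunit, rose (0.27 ± 0.064, adjusted p = 0.0432). On days 10 and 14, 0 genes of the mitochondrial and glycolytic lists passed. At an unadjusted p below 0.05 the assembly factors had 5 and 4 lower genes and the ribosome genes 3 and 6. Over all genes, 5.43% and 6.18% were lower at that p on days 10 and 14.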

How the data were processed

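The authors deposited log2 values, made with RMA per the submitters' processing notes; its version and the genome build are not given in the sources used here. Of 35556 probe sets, 21218 named 1 gene, 1881 several and 12457 none. The probe set with the highest mean stood for each of 18820 genes, with no filter on low values. Background was taken from 1180 olfactory and vomeronasal receptor probe sets, at their percentile 95. The fit used limma 3.58.1 in R 4.3.3 (4 group means over 22 arrays, contrasts, eBayes without trend, two-sided), after being tested on simulated data. Values by sample were given for members past the threshold, the 2 smallest p per complex and day, the 2 largest rises and falls per day, and an isoform list; of other lists, genes past the threshold or those with the smallest p were named. Members, lists and rules were chosen with earlier results of these data known. Separate mice are labelled, and the number of arrays limits the precision. Same-numbered samples were checked for pairing: the correlation of their deviations ran from -0.19 to 0.35 over 28 pairs (median 0.12, 15 over 0.1). Since not every pair was over 0.1 and the labels give no pairing, they were not treated as paired. No column was left unmapped (0). Motif counts used RefSeq promoter windows of GRCm38.p6.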

Additional observations from a re-analysis of the deposited data

Results flagged for a closer look

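Among 136 groups of named members and 24 groups of complex medians, 11 held a sample whose gap to the nearest other exceeded Dixon's 95% limit, and chance gives about 5% of groups. In day 17 mice, Cox6b1 in replicate 4 was low at 9.35, Cox7a1 in replicate 5 was low at 4.67, and Uqcr11 in replicate 6 was high at 7.99. The complex III median of day 17 replicate 6 was also high, at -0.031. In the other tumour groups, Cox8b in day 14 replicate 1 was high at 4.01 and Ndufa4l2 in day 10 replicate 1 was high at 4.31. Control replicate 4 was low for Cox6b1 (9.60), Ndufa4 (8.78) and Uqcr11 (7.61). Control replicate 1 was low for Ndufs5 (7.21) and high for Cox8c (4.20).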

How the results depend on the processing

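No result changed sign among those called. Over the alternatives the members' median changes lay between -0.11 and -0.023. The day 17 count of 3 members (211 over all genes) became 5 with array weights (457 over all genes) and 5 with a replicate block (616). It became 1 with only the groups compared (81), 1 with a covariate for the mean of the thalamus markers (83) and 0 at an adjusted p of 0.01 (35). It was also 0, as was the count over all genes, with the last 13 samples alone, without the 4 arrays highest in thalamus markers and with the neuron marker mean as a covariate. With one array left out it ran from 0 to 5. The day 14 count became 1 (Ndufs8, adjusted p = 0.0476) with an intensity trend. The F test count of 0 became 2 with a trend, 2 with array weights, 1 with a replicate block, 1 at an adjusted p of 0.1, and ran from 0 to 1 with one array left out. The median on day 17 became -0.064 with arrays centred on genes above background, -0.058 with cyclic loess, -0.058 with the first 9 samples alone and -0.049 with the neuron covariate; on day 10 it became -0.039 with loess and -0.023 with the neuron covariate, and on day 14 -0.031 with the neuron covariate. The causes were not tested. The settings on thalamus and neuron markers, the first 9 and last 13 samples and loess were chosen after seeing the data. Correlations of same-numbered samples were over 0.1 in 15 of 28 pairs, so not in every pair, and the labels give no pairing. Of 102 changes of single genes, 42 had another sign under at least 1 of 40 alternatives, and 0 of those were called. Of 4074 recomputed changes of single genes, 39 crossed the threshold in either direction. The 4 controls, all of day 14, limit the precision of every comparison with control.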
